A study of Rattus norvegicus with 14 samples.

Results

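The kainate receptor genes Grik1, Grik2, Grik3, Grik4 and Grik5 and the auxiliary protein genes Neto1 and Neto2 were followed in rat hippocampus by RNA sequencing. These 7 genes, taken by their symbols, are 7 of the 22601 genes listed for every library. All 7 were at 1 FPKM or more in all 14 libraries. FPKM is a fragment count scaled by transcript length and library total, so levels can be set side by side between genes per unit of length. That comparison rests on the length used for each gene and on even coverage, and neither was checked. Hippocampi came from wild-type Wistar rats of 180 to 220 g, in 3 groups. The PTZ+Q808 group (n = 5) received pentylenetetrazole (PTZ), a convulsant that blocks GABA-A receptors, and Q808, the compound under study, given by code name. The PTZ group (n = 5) received PTZ and vehicle. The control group (n = 4) received vehicle. The labels state no age, sex, dose or time from injection to sampling. A Y-linked transcript (Kdm5d or Eif2s3y) was at 1 FPKM or more in 8 of the 14 libraries, so sex may differ between libraries. The Y-linked term among the alternatives below stands for this split. How these 8 libraries fall over the 3 groups is not given here, so the balance of sex between groups cannot be judged. Nothing beyond the design text ties a replicate to an animal, so p-values measure the spread between these samples. In whole tissue, fewer cells of a type and less RNA per cell cannot be told apart.

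Kainate receptors are glutamate-gated cation channels built of subunit tetramers. GluK1, GluK2 and GluK3, encoded by Grik1, Grik2 and Grik3, have a lower affinity for kainate and can form channels on their own. GluK4 and GluK5, encoded by Grik4 and Grik5, have a high affinity and need a partner of the first kind to form working channels. Neto1 and Neto2 are single-pass membrane proteins that slow the gating of these channels and change their agonist sensitivity. In the hippocampus the receptors are best known from the mossy fibre synapse onto CA3 pyramidal cells and from interneurons, and kainate itself evokes seizures there.

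Dentate granule, CA1 and CA3 marker lists were detected, with 3 of 5, 5 of 5 and 4 of 5 genes at a mean of at least 1 FPKM. Some libraries also held transcripts of neighbouring tissue. Control replicate 2 had a summed level of 433 FPKM over 7 striatum markers, against 39.6 to 55.9 in the other 13 libraries. PTZ+Q808 replicate 3 had 677 FPKM over 4 pituitary markers, against 2.57 to 12.3 in the other 13. The choroid plexus gene Ttr stood at 329 FPKM in PTZ+Q808 replicate 1, 113 in PTZ replicate 2 and 54.5 in control replicate 3, against 1320 to 7130 in the other 11. Summed meninges markers, 5 of 5 at a mean of at least 1 FPKM, were 129, 117, 126, 49.5 and 63.0 FPKM in PTZ+Q808, 169, 101, 53.3, 60.3 and 53.6 in PTZ, and 54.5, 66.4, 49.9 and 53.7 in control. They were thus above every control in 3 of 5 PTZ+Q808 and 2 of 5 PTZ libraries, and their part in the comparisons was not tested. Fos, an activity-dependent transcription factor gene, was 27.0 to 142 FPKM in PTZ+Q808, 38.8 to 175 in PTZ and 11.2 to 23.4 in control libraries.

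The members were unequal in level, and part of their order held in all 14 libraries. Grik5 was highest at 53.0 ± 3.02 FPKM (SD over 14 libraries), and its lowest library lay above the highest library of any other member. Neto1 followed at 20.3 ± 2.06 FPKM and was above Neto2 (14.6 ± 2.06) in 14 of 14 libraries. Neto2, Grik4 (13.2 ± 1.89) and Grik2 (12.5 ± 1.03) could not be ordered beyond their spread. Neto2 was above Grik4 in 9 of 14 libraries, and Grik4 above Grik2 in 8 of 14. Grik3 was lower at 5.35 ± 1.66 FPKM, with a range that did not reach that of Grik2. Grik1 was lowest at 2.71 ± 0.398 FPKM and lay under Grik3 in 13 of 14 libraries.

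As a share of the summed FPKM of Grik1 to Grik5, Grik5 made up 62.1 ± 2.07% in PTZ+Q808 (SD, n = 5), 60.2 ± 1.71% in PTZ (n = 5) and 61.0 ± 1.68% in control (n = 4). Grik5 and Grik4 together, the high-affinity subunit transcripts, made up 76.4 ± 3.16% in PTZ+Q808, 75.4 ± 1.37% in PTZ and 77.2 ± 1.29% in control. The low-affinity subunit transcripts were thus the smaller part of the total in every library. Grik2 was the main one, at 12.6 to 15.9% over the 14 libraries, and Grik3 had the widest range among these 3 subunits, at 3.15 to 9.08%. Grik1 held 3.42 ± 0.511% in PTZ+Q808, 3.20 ± 0.191% in PTZ and 2.68 ± 0.302% in control. The summed level of Grik1 to Grik5 was 86.4 ± 4.16 FPKM in PTZ+Q808, 85.2 ± 5.55 in PTZ and 88.9 ± 5.89 in control, and the ranges overlapped. The ratio of summed Neto1 and Neto2 to this sum was 0.417 ± 0.0235 in PTZ+Q808, 0.407 ± 0.0232 in PTZ and 0.384 ± 0.0830 in control. Control replicates 1, 3 and 4, at 0.352, 0.336 and 0.340, lay under every library of both other groups. The lowest of those was PTZ replicate 3, at 0.366. Control replicate 2, the library with striatal transcripts, lay above all others at 0.508. Differences in this ratio between groups were not tested.

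**Figure D1:**
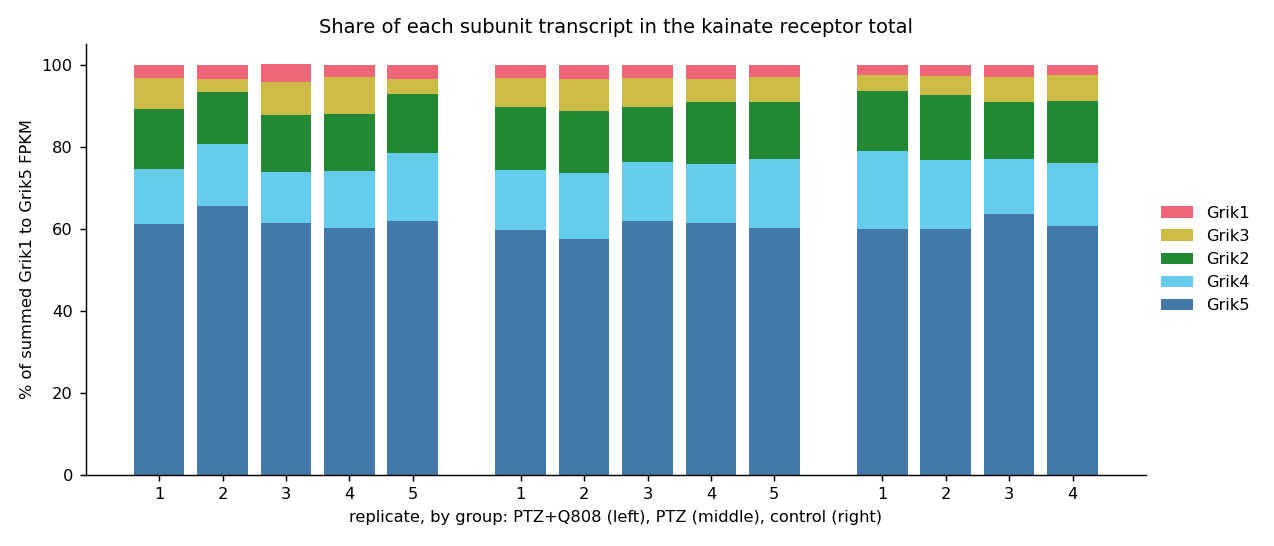
Stacked bars give the percent of the summed Grik1 to Grik5 FPKM held by each subunit transcript (y axis) in each library (x axis, PTZ+Q808 left, PTZ in the middle, control right). Grik5 holds 57.6 to 65.6% of every bar, and the segment of Grik3 is 3.15% in PTZ+Q808 replicate 2 and 9.08% in PTZ+Q808 replicate 4.

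Promoters of 3 members are shown so that their sequence can be read beside their levels. Grik5 varied least between libraries, Grik3 varied most, and Grik1 had the smallest p of any member in the tests below. All 7 members were matched by gene identifier to RefSeq promoter windows of 300 bases in the GRCr8 assembly, running from 250 bases before to 50 bases after the annotated start. The windows follow, 5′ to 3′ on the gene's strand, with capitals marking the GC box GGGCGG or its reverse complement CCGCCC.
Grik5 (chr1:89794860-89795159, minus strand): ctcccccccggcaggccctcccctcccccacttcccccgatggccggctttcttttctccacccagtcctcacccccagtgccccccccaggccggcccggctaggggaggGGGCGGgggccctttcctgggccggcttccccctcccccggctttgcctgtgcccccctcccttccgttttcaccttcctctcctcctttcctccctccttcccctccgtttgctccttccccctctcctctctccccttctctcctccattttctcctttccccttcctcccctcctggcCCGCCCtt
Grik3 (chr5:143052192-143052491, plus strand): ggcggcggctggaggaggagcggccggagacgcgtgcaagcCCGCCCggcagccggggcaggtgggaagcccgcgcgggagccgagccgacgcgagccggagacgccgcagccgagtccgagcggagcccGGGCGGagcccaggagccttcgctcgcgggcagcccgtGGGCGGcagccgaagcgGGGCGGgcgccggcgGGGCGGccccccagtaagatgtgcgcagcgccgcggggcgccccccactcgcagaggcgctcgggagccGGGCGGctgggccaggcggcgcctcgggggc
Grik1 (chr11:41056454-41056753, minus strand): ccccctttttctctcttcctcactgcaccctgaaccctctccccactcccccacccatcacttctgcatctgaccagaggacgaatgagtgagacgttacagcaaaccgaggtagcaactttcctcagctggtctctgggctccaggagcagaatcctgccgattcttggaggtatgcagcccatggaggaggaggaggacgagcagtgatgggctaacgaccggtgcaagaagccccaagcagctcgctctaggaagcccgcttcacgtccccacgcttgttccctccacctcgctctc
Grik3 held 6 GC boxes, Neto2 held 3, Grik5 held 2 and Neto1 held 1, while the windows of Grik1, Grik2 and Grik4 held none. Over all 27457 windows, 34.9% held at least 1 GC box on either strand. Base composition also differed within the family. GC content was 82.3% in Grik3, 74.0% in Neto2, 69.0% in Grik5, 60.0% in Neto1, 58.7% in Grik1, 50.3% in Grik2 and 44.0% in Grik4. The median over all windows was 52.3%. The cyclic AMP response element TGACGTCA and the AP-1 element TGANTCA, searched on both strands, were in 0 of 7 windows, against 1.9% and 7.3% of all windows. The shorter element TGACG was in 1 of 7, that of Grik2, against 22% of all windows. These matches describe letters in 1 window per gene and say nothing on binding.

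PTZ versus control addressed which transcripts differ in the seizure model. No kainate receptor or Neto transcript passed the test. Of 7 members 0 were called by limma at a Benjamini-Hochberg adjusted p under 0.05, where 0.0314% of the 12744 genes tested were called. At an unadjusted p under 0.05 there were 0 of 7, by limma and by the exact permutation test, against 8.11% of all genes by limma. The groups overlapped for all 7 members, while they did not overlap for 3.03% of all genes. The median log2 change was 0.01 over the members and -0.01 over all tested genes.

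In PTZ+Q808 versus PTZ, the comparison that asks what Q808 changed in the model, 0 of 7 members were called by limma, with 0% called over all genes. Again 0 of 7 had an unadjusted p under 0.05 by limma or by the exact permutation test, against 6.14% of all genes by limma. The groups overlapped for all 7, while 0.777% of all genes did not overlap. The median log2 change of the members was 0.00, as it was over all genes (-0.00).

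PTZ+Q808 versus control asked how animals given both agents differed from vehicle-treated ones. It gave calls for 2.87% of all genes and for 0 of 7 members by limma. The 2.87%, or 366 genes, was unstable. It became 17, 40 or 54 genes without control replicate 1, 3 or 4, and 32, 72, 673 or 38 without PTZ+Q808 replicate 1, 3, 4 or 5. Omitting the 3 Ttr-low libraries left 0, and a fit blocked on replicate number left 4. At an unadjusted p under 0.05 there was 1 of 7, Grik1, against 20.7% of all genes, and 0 of 7 by the exact permutation test. The groups overlapped for all 7 members, while 8.91% of all genes did not overlap. The median log2 change was 0.08 over the members and -0.02 over all genes. The comparisons share control or PTZ libraries, so their values are not independent of each other.

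**Figure D2:**
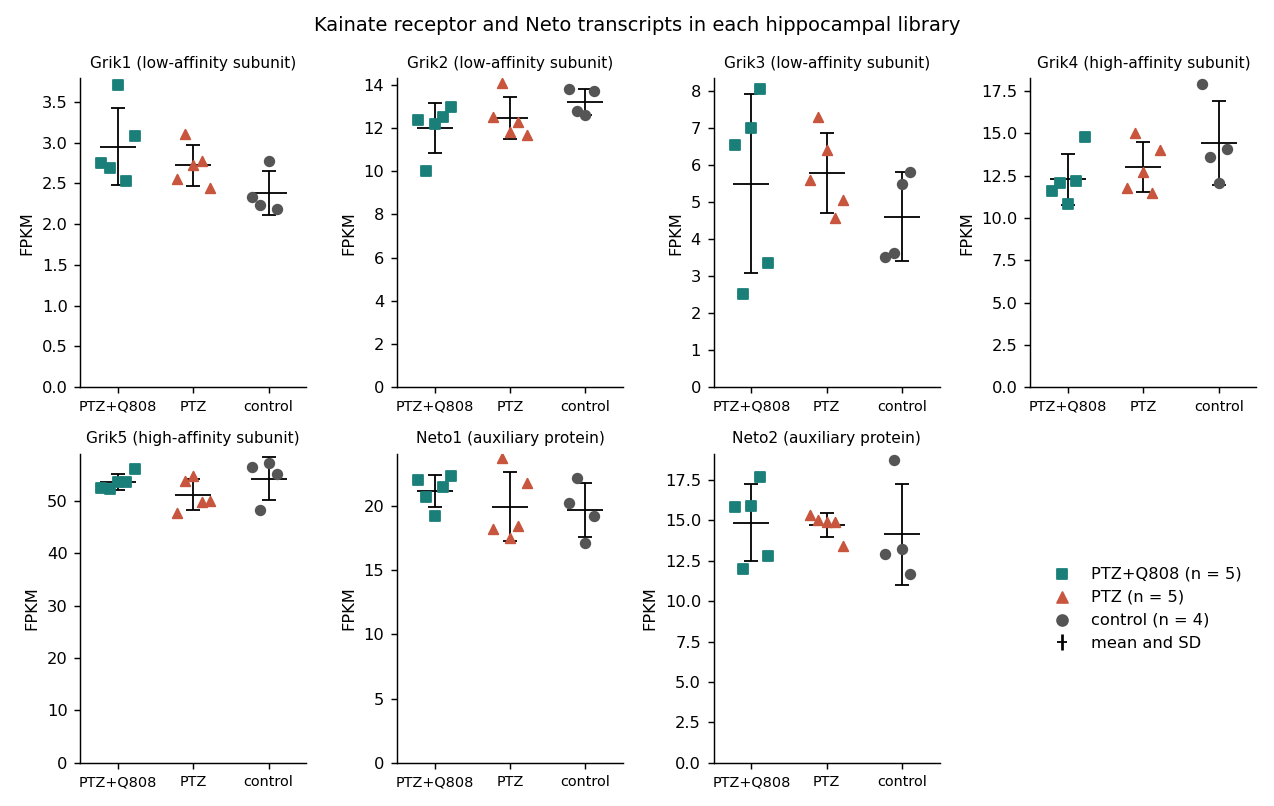
Points give the FPKM (y axis, from 0) of each member in each library, with PTZ+Q808 (squares, n = 5) left, PTZ (triangles, n = 5) in the middle and control (circles, n = 4) right, and black bars give the mean and SD. Groups overlap in every panel, Grik5 is the most even between libraries, and Grik3 is the most uneven, at 2.51 to 8.07 FPKM in PTZ+Q808.

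Grik1 encodes GluK1, a subunit known in the hippocampus mainly from interneurons. It was 2.75, 2.69, 3.71, 2.53 and 3.08 FPKM in the PTZ+Q808 libraries, 2.56, 3.11, 2.73, 2.77 and 2.45 in the PTZ libraries, and 2.34, 2.23, 2.77 and 2.19 in the control libraries. PTZ+Q808 replicate 3 was highest, 3 of 4 controls lay under every library of both other groups, and control replicate 3 lay among them. Grik1 had a log2 change of 0.22 ± 0.0920 (SE) in PTZ+Q808 versus control, a fold of 1.16 with a 95% interval of 1.02 to 1.34 (limma adjusted p = 0.194, exact permutation p = 0.0635). It had 0.14 ± 0.0920 in PTZ versus control (adjusted p = 0.724) and 0.08 ± 0.0868 in PTZ+Q808 versus PTZ (adjusted p = 0.931). The added pseudocount of 1 shrinks these values for a transcript this low, and with 0.1 in its place the first was 0.29 (adjusted p = 0.192). Without PTZ+Q808 replicate 3, the library with pituitary transcripts, it was 0.16 (adjusted p = 0.357), and with control replicate 2 left out as well 0.13 (adjusted p = 0.495). Summed interneuron markers, with 7 of 8 at a mean of at least 1 FPKM, were 404 to 477 FPKM in PTZ+Q808, 398 to 471 in PTZ and 413 to 521 in control libraries.

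Grik2 encodes GluK2, the main low-affinity subunit transcript here. It was 12.4, 10.0, 12.2, 12.5 and 13.0 FPKM in PTZ+Q808, 12.5, 14.1, 11.8, 12.3 and 11.7 in PTZ, and 13.8, 12.8, 12.6 and 13.7 in control. PTZ+Q808 replicate 2 was the lowest library, and the remaining 13 lay within 11.7 to 14.1 FPKM. The log2 change was -0.13 ± 0.0744 in PTZ+Q808 versus control, with a fold interval of 0.82 to 1.02 (adjusted p = 0.339). It was -0.08 ± 0.0744 in PTZ versus control (adjusted p = 0.790) and -0.05 ± 0.0701 in PTZ+Q808 versus PTZ (adjusted p = 0.940). Without PTZ+Q808 replicate 2 the last value turned to 0.01 (adjusted p = 0.992).

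Grik3 encodes GluK3, which in mouse mossy fibres acts as a presynaptic receptor. It was 6.56, 2.51, 7.02, 8.07 and 3.36 FPKM in PTZ+Q808, 5.61, 7.30, 6.42, 4.56 and 5.06 in PTZ, and 3.52, 3.63, 5.49 and 5.81 in control. The lowest and the highest libraries were both in PTZ+Q808, at a ratio of 3.22, so this member set no group apart. Its residual SD of 0.422 on the log2 scale was above that of 94.2% of the 500 tested genes nearest in mean, against a median of 0.138 over all tested genes. The log2 change was 0.29 ± 0.253 in PTZ versus control, and its interval, 0.84-fold to 1.77-fold, was the widest of the 7 members there (adjusted p = 0.783). It was 0.14 ± 0.253 in PTZ+Q808 versus control (0.76-fold to 1.61-fold, adjusted p = 0.796) and -0.14 ± 0.238 in PTZ+Q808 versus PTZ (0.64-fold to 1.29-fold, adjusted p = 0.954). Without PTZ+Q808 replicate 2 the last turned to 0.06 (adjusted p = 0.987). Leaving out single libraries moved the value in PTZ+Q808 versus control between 0.00 without PTZ+Q808 replicate 4 (adjusted p = 0.999) and 0.34 without PTZ+Q808 replicate 2 (adjusted p = 0.375). The 4 libraries lowest in Grik3 were PTZ+Q808 replicates 2 and 5 and control replicates 1 and 2. Their summed neocortex markers, 5 of 5 at a mean of at least 1 FPKM and a list picked for this after its values were seen, were 49.2, 54.9, 48.1 and 54.2 FPKM. In the other 10 libraries these ran from 47.4 to 99.9 FPKM, and over groups from 49.2 to 76.3 in PTZ+Q808, 47.4 to 99.9 in PTZ and 48.1 to 79.3 in control. PTZ replicate 1, lowest of all at 47.4, had 5.61 FPKM of Grik3. The part of neighbouring cortex in the spread of Grik3 was not tested.

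Grik4 encodes GluK4, a high-affinity subunit transcript enriched in CA3 pyramidal cells. It was 11.6, 12.1, 10.8, 12.2 and 14.8 FPKM in PTZ+Q808, 11.8, 15.0, 12.7, 11.5 and 14 in PTZ, and 17.9, 13.6, 12.1 and 14.1 in control. Control replicate 1 was highest, and the other 3 controls lay within the range of PTZ. The log2 change was -0.21 ± 0.110 in PTZ+Q808 versus control, with a fold interval of 0.74 to 1.02 (adjusted p = 0.310). It was -0.13 ± 0.110 in PTZ versus control (adjusted p = 0.773) and -0.07 ± 0.104 in PTZ+Q808 versus PTZ (adjusted p = 0.940). Leaving out control replicate 1 brought the changes to -0.10 in PTZ+Q808 versus control and -0.03 in PTZ versus control. Other single omissions widened them, to as far as -0.28 in PTZ+Q808 versus control. In PTZ versus control the value was -0.21 without control replicate 3. Summed CA3 markers, with 4 of 5 at a mean of at least 1 FPKM and Grik4 not among them, were 179 to 236 FPKM in PTZ+Q808, 193 to 220 in PTZ and 182 to 237 in control. Control replicate 1, highest in Grik4, had 237 FPKM of these markers, and PTZ+Q808 replicate 3, lowest in Grik4, had 179. Other libraries did not follow this order. PTZ replicate 4, with 11.5 FPKM of Grik4, had 213, and control replicate 2, with 13.6, had 182. The part of CA3 content in the level of Grik4 was not tested.

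Grik5 encodes GluK5, the high-affinity subunit that joins GluK2 in many brain kainate receptors. It was 52.5, 52.3, 53.7, 53.6 and 56.1 FPKM in PTZ+Q808, 47.7, 53.8, 54.7, 49.9 and 50.0 in PTZ, and 56.5, 48.2, 57.3 and 55.1 in control. The libraries differed by at most 1.20-fold, and the PTZ+Q808 libraries were the closest together, with a coefficient of variation of 2.8%. Grik5 thus had the narrowest intervals of the family. The log2 change was -0.08 ± 0.0570 in PTZ versus control (0.87-fold to 1.03-fold, adjusted p = 0.730) and 0.07 ± 0.0537 in PTZ+Q808 versus PTZ (0.97-fold to 1.13-fold, adjusted p = 0.897). In PTZ+Q808 versus control it was -0.01 ± 0.0570 (0.91-fold to 1.08-fold, adjusted p = 0.918). Without control replicate 2, the lowest control and the library with striatal transcripts, PTZ versus control gave -0.14 (limma adjusted p = 0.526). Leaving out single libraries gave -0.14 to -0.05 in that comparison and -0.07 to 0.01 in PTZ+Q808 versus control.

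Neto1 encodes the auxiliary protein that accompanies kainate receptors at CA3 synapses. It was 22, 20.7, 19.2, 21.5 and 22.3 FPKM in PTZ+Q808, 18.2, 23.7, 17.5, 18.4 and 21.8 in PTZ, and 20.2, 22.2, 17.1 and 19.2 in control. The PTZ libraries spanned nearly the whole range of the other groups. The log2 change was 0.10 ± 0.0918 in PTZ+Q808 versus control (0.94-fold to 1.23-fold, adjusted p = 0.566) and 0.09 ± 0.0865 in PTZ+Q808 versus PTZ (0.94-fold to 1.21-fold, adjusted p = 0.920). In PTZ versus control it was 0.01 ± 0.0918 (0.88-fold to 1.16-fold, adjusted p = 0.983), a value whose sign changed with the libraries left out.

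Neto2 encodes the second auxiliary protein. It was 15.8, 12, 15.9, 17.7 and 12.8 FPKM in PTZ+Q808, 15.3, 15.0, 14.9, 14.9 and 13.4 in PTZ, and 12.9, 18.7, 13.2 and 11.7 in control. Control replicate 2, the library with striatal transcripts, was the highest of all, and the other 3 controls lay under every PTZ library. Control replicate 2 was also the highest library in summed thalamus (81.0 FPKM), oligodendrocyte (6900) and choroid plexus markers (7250). The log2 change was 0.08 ± 0.124 in PTZ versus control (0.88-fold to 1.27-fold, adjusted p = 0.895) and 0.08 ± 0.124 in PTZ+Q808 versus control (adjusted p = 0.781). Without control replicate 2 both were 0.21, with an adjusted p of 0.643 in PTZ versus control and 0.296 in PTZ+Q808 versus control. Without control replicate 4, the lowest control, both were -0.00, with an adjusted p of 0.998 in PTZ versus control and 0.997 in PTZ+Q808 versus control. In PTZ+Q808 versus PTZ it was 0.00 ± 0.117 (0.84-fold to 1.19-fold, adjusted p = 0.999). The ratio of Neto1 to Neto2 was 1.46 ± 0.263 in PTZ+Q808, 1.36 ± 0.223 in PTZ and 1.42 ± 0.216 in control. The part of striatal, thalamic, oligodendrocyte or choroid plexus content in the Neto2 level was not tested.

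**Figure D3:**
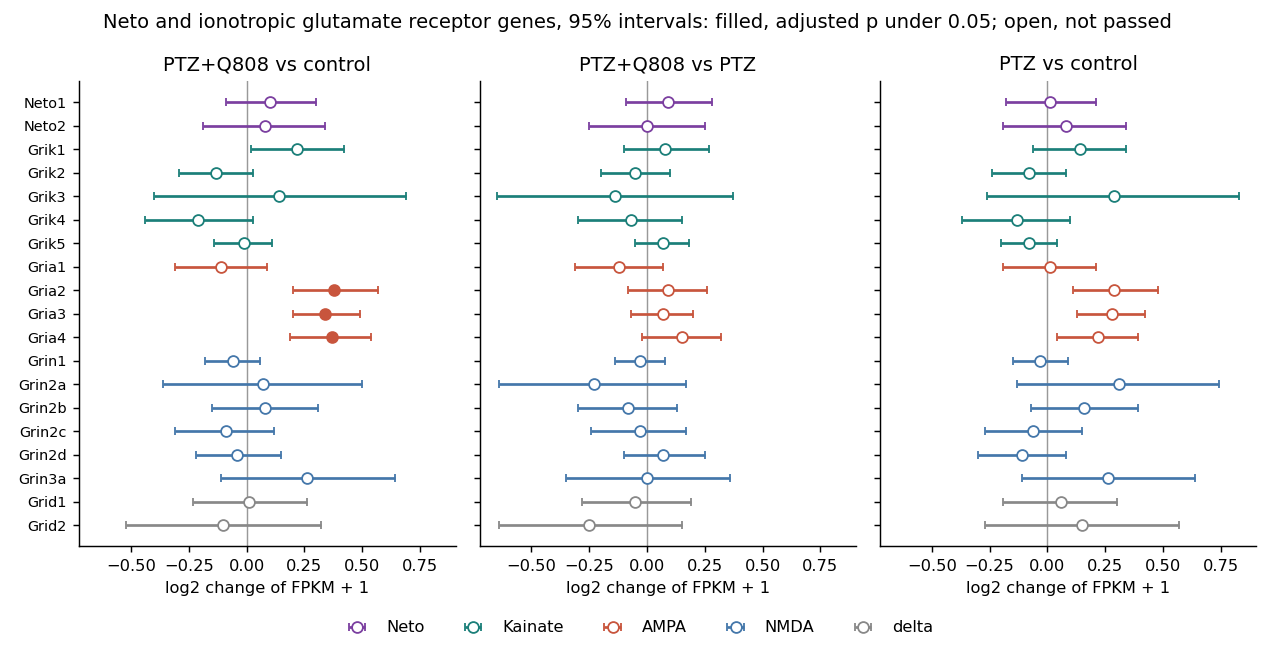
Circles give the log2 change of FPKM + 1 (x axis) with its 95% interval for Neto genes and for kainate, AMPA, NMDA and delta receptor subunit genes (y axis) in the 3 comparisons, filled where the adjusted p was under 0.05. Every kainate receptor and Neto circle is open, and Gria2, Gria3 and Gria4 in PTZ+Q808 versus control are the filled ones, at 0.38, 0.34 and 0.37.

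Deviations from the group mean describe how the members varied from library to library, with 14 libraries and the same FPKM scaling behind each pair. The highest of the 21 pairwise Pearson correlations was 0.65, for Grik4 with Neto1. Next were Grik2 with Grik3 (0.48), Grik1 with Grik5 (0.43), Grik2 with Grik4 (0.42) and Grik3 with Neto2 (0.42). The lowest was -0.49, for Grik5 with Neto2. By the same measure the genes most like each member over the 14 libraries were Inpp4a (0.96), Palm2 (0.95) and Map3k9 (0.94) for Grik3. For Grik4 they were Mas1 (0.94), Slc24a3 (0.89) and Dgkg (0.88), and for Grik5 Otud7a (0.92), Mapk8ip2 (0.91) and Fbxw9 (0.90). Grik1 was closest to Dgat1 (0.91), Nrsn2 (0.89) and Slc9a5 (0.88), and Grik2 to Arhgap21 (0.93), Bend4 (0.91) and Magee2 (0.90). Neto1 was closest to Zhx1 (0.95), Rfc1 (0.90) and Zfp39 (0.89), and Neto2 to Kctd8 (0.91), Lrrk2 (0.90) and Dlg1 (0.89). Without subtraction of group means the values for Grik3 were 0.96, 0.93 and 0.95 in that order, while those of Otud7a with Grik5 and Nrsn2 with Grik1 were 0.49 and 0.48. Each list holds the best 3 of all tested genes with a named symbol, so high values are given by the choice.

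**Figure D4:**
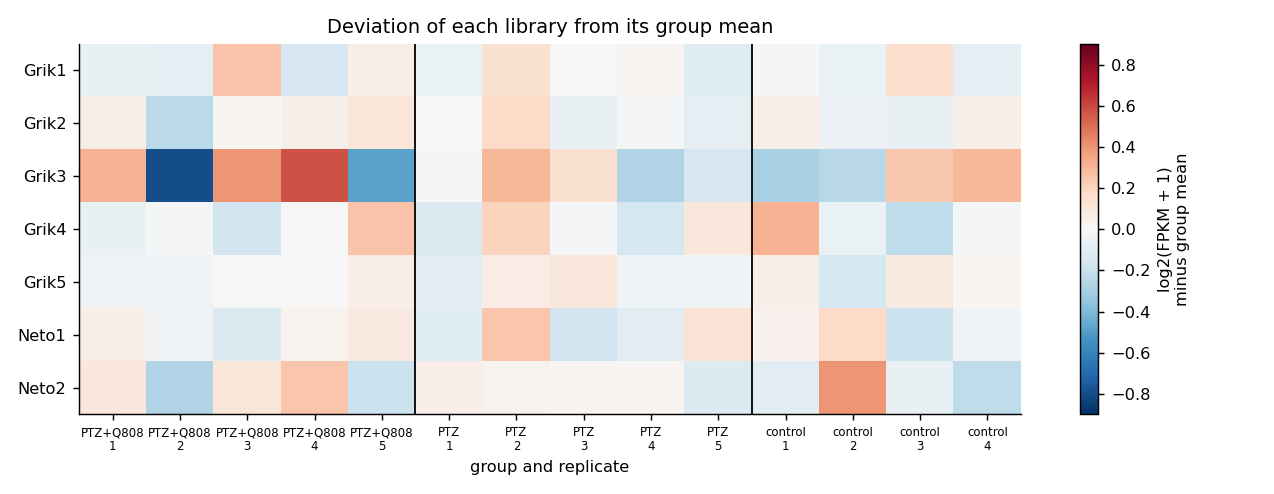
Colour gives log2(FPKM + 1) minus the mean of the library's group for each member (rows) in each library (columns, PTZ+Q808 left, PTZ in the middle, control right). Grik3 is the most strongly coloured row, with -0.80 in PTZ+Q808 replicate 2 and 0.57 in PTZ+Q808 replicate 4, followed by Neto2 in control replicate 2 (0.40) and Grik4 in control replicate 1 (0.31).

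The other genes of the pathway were taken as 6 lists with 49 genes in the files, of which 46 were tested. The lists were chosen with earlier results of these data known, so a share above that of all genes is no independent evidence. In PTZ versus control and in PTZ+Q808 versus PTZ 0 of 46 were called, where 0.0314% and 0% of all genes were called. In PTZ+Q808 versus control 4 of 46 were called, all higher, where 1.94% of all genes were called higher and 0.934% lower. They were the AMPA receptor subunit genes Gria2, Gria3 and Gria4 and the ubiquitin ligase scaffold gene Cul3. Of AMPA, NMDA and delta receptor subunit genes 3 of 12 rose there, against 1.94% of all genes, and 0 of 12 fell, against 0.934%, with a median log2 change of 0.04, against -0.02 over all genes. Gria2 was 80.1 ± 4.90 FPKM in PTZ+Q808 (SD, n = 5) and 61.2 ± 2.18 in control (n = 4), a log2 change of 0.38 (limma adjusted p = 0.0352). Gria3 was 39.1 ± 1.21 FPKM in PTZ+Q808 and 30.6 ± 1.24 in control (0.34, adjusted p = 0.0241). Gria4 was 16.8 ± 1.15 FPKM in PTZ+Q808 and 12.8 ± 1.41 in control (0.37, adjusted p = 0.0348). The remaining AMPA subunit gene, Gria1, had -0.11 (adjusted p = 0.549). In PTZ versus control Gria2, Gria3 and Gria4 had 0.29, 0.28 and 0.22 and did not pass (adjusted p = 0.431, 0.335 and 0.563). Whether the AMPA and kainate subunit changes differ from each other was not tested.

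Cul3 is joined to GluK2 by the adaptor encoded by Klhl17, which marks the subunit for degradation. It rose to 23.0 ± 1.17 FPKM in PTZ+Q808, against 18.2 ± 1.13 in control (log2 change 0.32, limma adjusted p = 0.0372), and was 20.6 ± 2.30 in PTZ. It was 1 of 8 tested genes of kainate receptor trafficking and turnover, with a list median of 0.01. Gria2, Gria3, Gria4 and Cul3 each lost the call without control replicate 1, 3 or 4 or PTZ+Q808 replicate 1, 3 or 5. Gria2 and Gria4 also lost it without control replicate 2 and Cul3 without PTZ+Q808 replicate 2, with adjusted p of at most 0.110 over these libraries. Their log2 changes stayed within 0.29 to 0.41 over all alternatives. Kif17, a motor that carries kainate receptor subunits in dendrites, had -0.29 in PTZ+Q808 versus control (adjusted p = 0.0712).

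Of all genes, 2.87% were called in PTZ+Q808 versus control, 0.0314% in PTZ versus control and 0% in PTZ+Q808 versus PTZ. For the short lists that follow, 0 calls lies close to these shares. Scaffold and partner genes gave 0 calls of 13 in PTZ+Q808 versus control, with a median of 0.06. Their smallest p there was that of Snap25 (0.27, adjusted p = 0.0813), whose product binds GluK5. Snap25 also had the smallest p of that list in PTZ versus control (0.14, adjusted p = 0.671), and the cadherin gene Cdh2 in PTZ+Q808 versus PTZ (0.07, adjusted p = 0.835). The mossy fibre organiser genes C1ql2, C1ql3 and Nrxn3, whose products gather kainate receptors at CA3 synapses in mouse, gave 0 calls of 3. C1ql2 had -0.33 in PTZ versus control (adjusted p = 0.671), and C1ql3 had 0.32 in PTZ+Q808 versus control (adjusted p = 0.285) and 0.19 in PTZ+Q808 versus PTZ (adjusted p = 0.898). The ADAR family genes Adar, Adarb1 and Adarb2 gave 0 calls of 3. Adarb1, which encodes ADAR2, the enzyme that edits the pore codon of Grik2 transcripts, was 27.5 ± 3.34 FPKM in PTZ+Q808, 30.4 ± 2.36 in PTZ and 34.1 ± 7.34 in control. Its log2 change was -0.29 in PTZ+Q808 versus control (adjusted p = 0.182), -0.14 in PTZ+Q808 versus PTZ (adjusted p = 0.887) and -0.15 in PTZ versus control (adjusted p = 0.763). Editing itself cannot be read from gene-level FPKM. Kinase and phosphatase genes gave 0 calls of 7, with the smallest p for Camk2b in PTZ+Q808 versus control (-0.15, adjusted p = 0.319), Prkca in PTZ+Q808 versus PTZ (-0.07, adjusted p = 0.933) and Prkcb in PTZ versus control (0.14, adjusted p = 0.697).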

How the data were processed

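Libraries of bead-captured mRNA from hippocampal RNA were, per the labels' protocols, run on a BGI T7 sequencer. The authors deposited 1 file of FPKM per library, listing 22601 genes. The submitters' processing notes list HISAT2, Bowtie2, Trimmomatic, StringTie, Cufflinks, HTSeq, SAMtools and DESeq, with neither role nor version, and the genome build was not given in the sources used here. FPKM summed to 383126 to 419358 per library. No counts were used, so depth is unknown and intervals for counting error cannot be had. No pair of libraries was identical (0 pairs), and Spearman correlations across genes between libraries were 0.980 to 0.988. Strand use in counting was not stated, so reads of overlapping antisense genes cannot be told apart.

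Genes with FPKM of at least 1 in at least 4 libraries were tested (12744). Values were log2(FPKM + 1), and limma 3.58.1 (R 4.3.3) was run on all 3 groups at once with a mean-dependent prior variance and 11 residual degrees of freedom, after a check on simulated data. Tests were two-sided, and a call needed p under 0.05 after Benjamini-Hochberg adjustment over 12744 genes. Intervals are 95% intervals from that fit. Fold changes are on the log2(FPKM + 1) scale, which understates changes of low genes. Exact permutation tests (SciPy 1.17.1) used log2 means of the 2 groups, with 21 tests in the family. The smallest p they allow is 0.0159 for 5 against 4 libraries and 0.00794 for 5 against 5, and the smallest value after Benjamini-Hochberg adjustment was 0.556. The rule named the 7 members always, for each member the 3 tested genes of highest Pearson correlation after group means were subtracted, and from each list its called genes and the gene of smallest p. One gene that this rule names is not reported here. Gria1 and Kif17 beside these, and the further values of Gria2, Gria4 and Adarb1, were chosen after their values were seen. Members and lists were chosen with earlier results of these data known. Replicate numbers repeat across groups, and 2 of 13 same-numbered pairs had a correlation of deviations over 0.1, so they were not taken as pairs. Promoter windows are from RefSeq (GRCr8). Figures were drawn with matplotlib 3.10.9.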

Additional observations from a re-analysis of the deposited data

Results flagged for a closer look

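Chance alone marks about 1 group in 20 by the measure used here, the gap of an extreme library to its neighbour over the range of its group, and 6 of 51 groups were marked. Grik2 was 10.0 FPKM in PTZ+Q808 replicate 2, far below the other 4 libraries of its group. In that library Grik2 also held a low share of the summed Grik FPKM (12.6%), and the ratio of Grik5 to Grik2 was high (5.21). These 3 values share the same Grik2 measurement. Neto2 was 13.4 FPKM in PTZ replicate 5, below the other 4 PTZ libraries. The ratio of summed Neto to summed Grik FPKM was 0.366 in PTZ replicate 3, below its group. The same ratio was 0.508 in control replicate 2, above the other 3 controls, in the library that also held 433 FPKM of striatum markers. That library was also the highest in summed FPKM of thalamus, oligodendrocyte and choroid plexus markers. The part of any of these contents in that ratio was not tested.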

How the results depend on the processing

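Each of the 21 member results was recomputed under 27 alternatives, and 0 of 7 members were called in any comparison under all of them. Grik1 fell below the minimum FPKM of 5 and had no value there. Over 564 values 541 kept their direction and their side of the threshold, 23 changed sign, and none newly passed. The smallest adjusted p of any member was 0.0978, for Grik1 in PTZ+Q808 versus control with weights per library. Neto1 in PTZ versus control was -0.01 with a replicate block, -0.00 with a Y-linked term and -0.11 without the 3 libraries low in Ttr, and -0.05 to 0.07 when single libraries were left out. Neto2 in PTZ+Q808 versus PTZ was -0.00 with a pseudocount of 0.1 or median-of-ratios scaling, -0.02 with an equal total per library or without the libraries low in Ttr, -0.03 without control replicate 2 and PTZ+Q808 replicate 3 together, and -0.06 to 0.07 without single libraries. Leaving out single libraries gave -0.00 to 0.21 for Neto2 in both comparisons with control. It gave -0.08 to 0.01 for Grik2 and -0.28 to 0.06 for Grik3 in PTZ+Q808 versus PTZ, and -0.07 to 0.01 for Grik5 in PTZ+Q808 versus control. Grik5 was 0.02 there without the libraries low in Ttr, and Grik3 -0.04 without control replicate 2 and PTZ+Q808 replicate 3 together, an alternative chosen after seeing the data. The cause was not tested.

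The count of all genes called depended on the processing. With so few members and such low shares of genes called, the count of called members had little room to move. It therefore cannot be set against the count over all genes. All genes called numbered 366 in PTZ+Q808 versus control, 4 with a replicate block, 0 without the 3 libraries low in Ttr, 190 with no filter, 199 with only the 2 groups compared, 564 with a Y-linked term, 57 without the 2 libraries with foreign tissue and 1100 with weights per library. Leaving out single libraries gave 17 to 673. In PTZ versus control the count was 4, with 0 to 8 over alternatives (0 with the replicate block), and in PTZ+Q808 versus PTZ 0, with 2 under no filter. The replicate block ended the calls of Gria2, Gria3, Gria4 and Cul3 (adjusted p = 0.0762, 0.0705, 0.0918 and 0.0939). So did leaving out the 3 libraries low in Ttr (0.177, 0.144, 0.151 and 0.177) or control replicate 2 and PTZ+Q808 replicate 3 together (0.0929, 0.0721, 0.104 and 0.0763). Without a filter Gria2, Gria4 and Cul3 did not pass (0.0535, 0.0510 and 0.0535), nor did Gria4 with only the 2 groups compared (0.0556). Same-numbered libraries had a median correlation of deviations of -0.00 over 13 pairs, and 0 of 14 libraries correlated best with their own number. Depth was unknown for every member.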
